A study of Mus musculus with 2 samples.

Results

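The autophagy machinery described here is a set of 36 genes named by symbol, from the kinase complex that starts an autophagosome to the lysosome that digests its content. All 36 were found, each as 1 row, among the 55536 genes of the tables. The RNA came from the gastrocnemius, the large calf muscle, of female B6CASTF1/J mice, an F1 hybrid strain, given by the labels as 18 to 20 months old. Both total RNA libraries (replicates 1 and 2, from different tissue samples) belong to 1 group with no treatment or engineered allele named in the labels, so no conditions were compared. The labels give 300 ng of input RNA per library and ribosome-reduced stranded libraries with ERCC spike-ins, synthetic RNAs added as a scale. The donor identifier is shared by both and names the strain, so that the samples came from separate mice rests on the tissue sample labels alone.

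Autophagy wraps cytoplasm in a double membrane, the autophagosome, and delivers it to the lysosome. The ULK kinase complex starts the process, a class III phosphatidylinositol 3-kinase complex marks the membrane, and ATG9 with ATG2 supplies lipid. Ubiquitin-like ATG8 proteins (the LC3 and GABARAP families) are then joined to the membrane lipid phosphatidylethanolamine, where cargo receptors bind them. In skeletal muscle the pathway is known for clearing mitochondria, glycogen and protein aggregates, and FoxO factors and TFEB are known to drive transcription of its genes.

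A step that all ATG8 proteins share can be read in their coding ends. ATG4 proteases cut the newly made protein just after a glycine, and this exposed glycine is what is joined to the lipid. The last 60 coding bases before the stop codon of the lowest-numbered coding transcript of each gene in GENCODE M21 are shown because their ends differ among the members, with the codon of that glycine in capitals.
Map1lc3a: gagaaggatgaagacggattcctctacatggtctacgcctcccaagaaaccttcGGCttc
Map1lc3b: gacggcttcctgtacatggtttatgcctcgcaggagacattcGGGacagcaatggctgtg
Gabarap: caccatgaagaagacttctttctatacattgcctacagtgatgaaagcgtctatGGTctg
Gabarapl1: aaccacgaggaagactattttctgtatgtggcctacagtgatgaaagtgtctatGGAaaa
Gabarapl2: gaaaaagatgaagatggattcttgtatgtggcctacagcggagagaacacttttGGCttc
In the LC3 transcripts the glycine is codon 120, and in the GABARAP transcripts it is codon 116. Map1lc3b has 5 codons after it and the others have 1. Over the 351 coding bases that the GABARAP genes have in common length, Gabarap and Gabarapl1 were 74.6% identical, Gabarap and Gabarapl2 61.5%, and Gabarapl1 and Gabarapl2 63.5%.

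Expected counts, the estimate of each gene's reads in tables with RSEM's column names, summed to 38654555 in replicate 1 and 43722892 in replicate 2. Levels are given in TPM, a share of all transcripts that corrects for length, as the value of each library or as the mean ± SD (n = 2). Differences between the libraries are the log2 ratio of TMM-scaled counts, replicate 2 over replicate 1, and fold intervals are exact 95% binomial intervals that cover counting error only. With 1 library against 1 no test of a difference was possible, and these ratios describe the libraries. Fast fibre markers, which define this muscle, were all detected (9 of 9) and had a median level of 8992 ± 789 TPM. Their median log2 ratio was 0.03, with 5 above 0 and 4 below. Of these markers 1 passed 2-fold: Myh1, at 727 and 1709 TPM, was 2.60-fold higher in replicate 2 (2.58 to 2.62). Slow fibre markers stood higher in replicate 2: all 8 were at least 2-fold higher, and their summed TPM was 451 in replicate 1 and 2426 in replicate 2. In whole muscle, fewer cells of a type and less RNA per cell cannot be told apart.

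Each of the 36 genes reached 1 TPM in both libraries, where 10010 of the 21951 protein-coding genes did. Of the 36, 23 reached 10 TPM in both, a limit for which the share of all genes was not computed. Their median was 24.5 TPM in replicate 1 and 24.4 TPM in replicate 2, against 8.84 and 8.10 TPM over the 10010 protein-coding genes at or above 1 TPM in both libraries. Counting protein-coding transcripts alone, the members' medians were 12.8 and 13.1 TPM, against 7.22 and 6.67 TPM over the same background genes. By mean TPM, 26 of the 36 ranked above the median of those genes, and 26 did so in coding transcripts alone. Together they took 0.265% of the TPM of protein-coding genes in replicate 1 and 0.221% in replicate 2. Sqstm1 alone supplied 21.5% and 19.2% of the members' TPM. Sqstm1, Map1lc3a and Gabarap had the highest mean levels. The conjugation genes, which serve to join ATG8 to lipid, lay near or below the median detected gene, as the plot of levels by role shows.

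**Figure D1:**
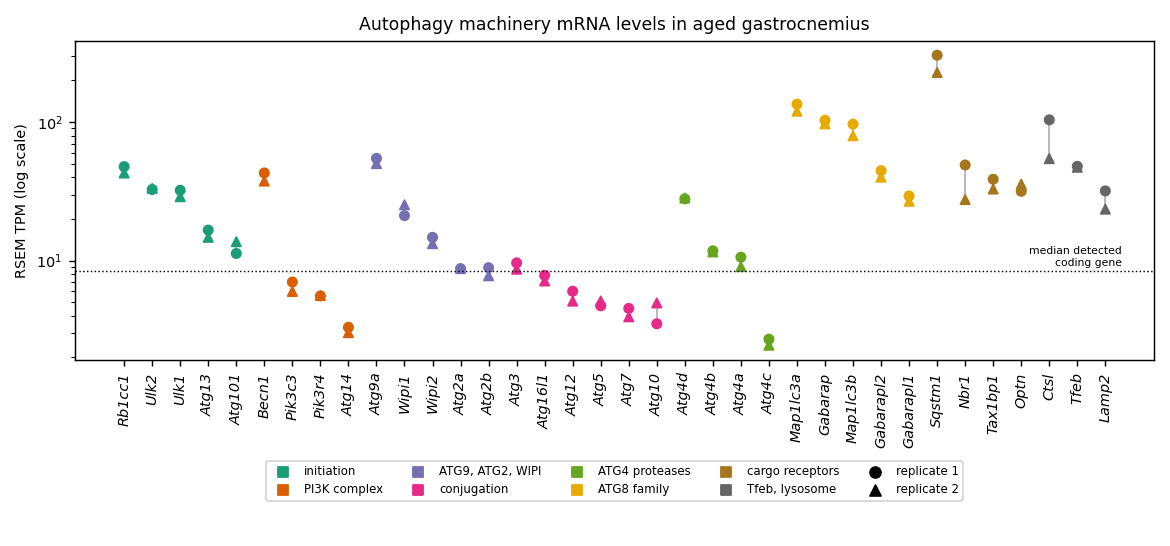
RSEM TPM on a log axis for each of the 36 genes, coloured by role, with circles for replicate 1, triangles for replicate 2 and a grey line joining them; the dotted line is the median of detected protein-coding genes (8.47 TPM). The ATG8 genes stood between 26.8 and 135 TPM, while the 6 conjugation genes stood between 3.50 and 9.64 TPM.

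Of the initiation complex, Rb1cc1, the large scaffold (FIP200), was at 47.7 TPM in replicate 1 and 42.9 TPM in replicate 2. By RSEM its leading transcript, at 10.4 and 8.78 TPM, was annotated for nonsense-mediated decay. The Rb1cc1 transcript with the longest coding sequence (4764 bases) held 7.40 and 6.43 TPM. The kinases of the complex, Ulk1 (32.2 and 28.9 TPM) and Ulk2 (32.7 and 33.2 TPM), stood at like levels, with an Ulk1 to Ulk2 ratio of 0.987 and 0.871. Atg13, which links the kinase to the scaffold, was at 16.6 and 14.7 TPM. Atg101, which stabilises Atg13, was the lowest of the complex at 11.3 and 13.7 TPM. Atg101 was 1.35-fold higher in replicate 2 (1.18 to 1.54), and Rb1cc1 was 1.13-fold lower (1.08 to 1.18). For Ulk1 and Atg13 the counting interval spanned 1, and Ulk2 was 1.10-fold higher (1.06 to 1.14). RSEM's counts of Rb1cc1 were not whole, so some of its reads were shared with other genes.

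In the class III kinase complex 1 gene stood far above the rest. Becn1, the regulatory subunit beclin, was listed at 43.0 and 37.5 TPM. Pik3c3, the lipid kinase itself, stood at 7.01 and 5.99 TPM, Pik3r4, its scaffold, at 5.56 and 5.60 TPM, and Atg14, the subunit that directs the complex to autophagy, at 3.30 and 3.02 TPM. Most of the Becn1 level came from transcripts that are not annotated as protein coding. By RSEM its protein-coding transcripts summed to 9.73 and 5.02 TPM. This put the RSEM ratio of Becn1 to Pik3c3 in coding transcripts at 1.39 in replicate 1 and 0.837 in replicate 2. The Becn1 transcript with the longest coding sequence (1344 bases) held only 0.30 and 0.05 TPM by RSEM and 0.54 and 0.18 TPM by kallisto. For Pik3c3 the transcript with the longest coding sequence (2661 bases) held 6.55 and 5.68 TPM by RSEM. Of the 9.73 TPM of Becn1, 5.44 belonged to 1 short coding transcript of 375 bases that RSEM listed at 0 in replicate 2 and kallisto at 0 in both. The ratio depends on the tool: by kallisto another Becn1 coding transcript, of 684 bases, alone held 19.0 and 16.9 TPM. Pik3c3 as a whole had 9.40 and 7.56 TPM by kallisto. All 4 counting intervals of this complex spanned 1, with log2 ratios from -0.08 to 0.07.

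Among the genes of lipid supply and of the readers of phosphatidylinositol 3-phosphate, Atg9a, a lipid scramblase carried on vesicles, was the highest at 54.8 and 50.2 TPM. The lipid transfer proteins Atg2a (8.76 and 8.75 TPM) and Atg2b (8.90 and 7.77 TPM) were close to each other. Wipi1 stood at 21.1 and 25.3 TPM and Wipi2, which recruits the conjugation machinery, at 14.7 and 13.3 TPM. Wipi1 was 1.31-fold higher in replicate 2 (1.22 to 1.41), while the interval of Wipi2 spanned 1. Atg2b was 1.10-fold lower (1.02 to 1.18), Atg9a was 1.04-fold higher (1.00 to 1.08), and the interval of Atg2a spanned 1.

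The conjugation genes lay near or below the median detected protein-coding gene, from the 29.1 to the 52.0 percentile. Atg3, which transfers ATG8 to the lipid, led them with 9.64 and 8.67 TPM, followed by Atg16l1, which places the reaction on the membrane, at 7.83 and 7.13 TPM. The ubiquitin-like Atg12 stood at 6.01 and 5.10 TPM, and its partner Atg5 at 4.72 and 5.11 TPM. Atg7, the activating enzyme of both conjugation systems, was at 4.52 and 3.93 TPM, and Atg10, which joins Atg12 to Atg5, at 3.50 and 4.95 TPM. The summed TPM of the ATG8 genes was 11.3 times that of the conjugation genes in replicate 1 and 10.4 times in replicate 2. Atg10 had the largest ratio of the 36 genes under TMM scaling, with expected counts of 107 and 213. It was 1.95-fold higher in replicate 2 (1.54 to 2.48), just under the 2-fold limit, and the other 5 intervals of the group spanned 1. By RSEM its protein-coding transcript had 54.3 and 178 expected counts, and a transcript annotated for nonsense-mediated decay had 48.2 and 34.8. Kallisto gave them 47.4 and 101 and 22.4 and 54.5 estimated counts, so the coding transcript was higher in replicate 2 by both tools while the other differed in direction.

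Of the ATG4 proteases, Atg4d was listed highest at 27.9 and 28.4 TPM, but its protein-coding transcript held only 0.750 and 0.760 TPM. Atg4b, a protease of broad specificity towards ATG8 proteins, was at 11.8 and 11.6 TPM. Of its RSEM TPM, 37.1% and 55.5% belonged to 1 short coding transcript of 513 bases, on 52.4 and 87.0 expected counts. Its coding transcript of 4173 bases was at 3.50 and 2.95 TPM. Atg4a was at 10.6 and 9.05 TPM, and Atg4c at 2.71 and 2.45 TPM. Atg4a had fractional expected counts. Atg4d was 1.13-fold higher in replicate 2 (1.05 to 1.22), and the other 3 intervals spanned 1.

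Among the ATG8 genes, Map1lc3a (LC3A) was highest by RSEM at 135 and 120 TPM, ahead of Gabarap at 103 and 97.1 TPM and Map1lc3b (LC3B) at 96.6 and 79.7 TPM. Gabarapl2 stood at 44.6 and 40.0 TPM and Gabarapl1 at 29.3 and 26.8 TPM. The LC3 pair summed to 216 ± 22.6 TPM and the GABARAP trio to 170 ± 9.25 TPM. The shares of the family's TPM moved little between the libraries, from 33.02% to 32.97% for Map1lc3a and from 23.7% to 21.9% for Map1lc3b. The order of the top genes depends on the tool: kallisto put Map1lc3b first, at 223 and 177 TPM, ahead of Map1lc3a at 187 and 159 TPM. Map1lc3b was 1 of the 5 members with fractional expected counts in either library. It was 1.10-fold lower in replicate 2 (1.05 to 1.14), and the other 4 intervals spanned 1.

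The coding ends printed above were not carried by all of the RNA of these genes. For Map1lc3b, transcripts with the shown end took 99.1% and 98.8% of RSEM TPM, and for Gabarapl1 98.1% and 99.1%. For Gabarap they took 41.0% and 38.3%, while another coding transcript, whose coding sequence ends in other bases, took 58.7% and 56.8%. For Gabarapl2 they took 48.8% and 48.3%, beside a retained intron transcript at 50.8% and 51.7%. The tools differed most for Map1lc3a, with 37.8% and 39.1% by RSEM and 97.1% and 96.7% by kallisto. They also differed for Gabarap, where kallisto gave the shown end 51.6% and 55.4%, and for Gabarapl1, where it gave 71.95% and 69.2%. Expressed as TPM in transcripts with the shown end, Map1lc3b led the family by RSEM at 95.8 and 78.7 TPM, ahead of Map1lc3a at 51.0 and 46.9 TPM and Gabarap at 42.3 and 37.1 TPM.

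Sqstm1, the receptor that links ubiquitinated cargo to LC3 (also called p62), was the most abundant of the 36 genes at 304 TPM in replicate 1 and 228 TPM in replicate 2. It ranked at the 98.0 percentile of detected protein-coding genes. Nbr1, a relative of Sqstm1 with its own ubiquitin and LC3 binding, stood at 49.1 and 27.6 TPM. Tax1bp1 stood at 38.7 and 32.9 TPM and Optn (optineurin), known for its part in mitophagy, at 31.7 and 35.6 TPM. Of these receptors, 3 were lower in replicate 2 and 1 was higher. Sqstm1 was 1.21-fold lower (1.18 to 1.23), Nbr1 1.46-fold lower (1.40 to 1.53) and Tax1bp1 1.17-fold lower (1.11 to 1.23). Optn was 1.17-fold higher (1.10 to 1.24).

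Tfeb, the transcription factor of lysosomal and autophagy genes, was at 48.0 and 47.2 TPM and, in scaled counts, 1.09-fold higher in replicate 2 (1.03 to 1.15). Ctsl (ENSMUSG00000021477.9, chromosome 13, 64359337 to 64370890, mm10), the lysosomal protease cathepsin L, stood at 104 TPM in replicate 1 and 54.5 TPM in replicate 2. It was 1.64-fold lower in replicate 2 (1.56 to 1.73), the largest fall of the 36 under TMM scaling, on 3842 and 2390 expected counts. By kallisto its TPM were 181 and 88.4, past 2-fold on that scale, while kallisto's scaled counts gave a log2 ratio of -0.69. Lamp2 (ENSMUSG00000016534.15, chromosome X, 38401357 to 38456454), a membrane protein of the lysosome, stood at 31.9 and 23.5 TPM and was 1.23-fold lower (1.16 to 1.30).

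Lamp2 makes alternative proteins from a last coding exon that is exchanged, and the forms are known to serve different routes: form A acts in chaperone-mediated autophagy, while form B is the main form of muscle. The last 60 coding bases of each form in GENCODE M21 are shown because the forms part only at their ends, with the last 5 codons, which encode the tail signal for lysosomal sorting, in capitals.
Lamp2 form A: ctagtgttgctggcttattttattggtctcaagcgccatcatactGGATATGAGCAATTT
Lamp2 form B: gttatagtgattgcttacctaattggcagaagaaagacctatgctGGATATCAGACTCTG
Lamp2 form C: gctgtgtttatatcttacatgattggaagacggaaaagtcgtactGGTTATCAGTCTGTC
Forms A and B differed at 30 of these 60 bases, A and C at 29, and B and C at 22. Form B took 65.0% of the gene's RSEM TPM in replicate 1 and 64.6% in replicate 2. Form A took 25.0% and 27.0%, and form C 2.48% and 1.53%. Kallisto gave form B 64.1% and 61.7% and form A 22.4% and 26.4%. The order of the coding forms (B, A, C) was the same in both libraries and by both tools. In TPM, form B went from 20.7 in replicate 1 to 15.2 in replicate 2, form A from 7.98 to 6.36 and form C from 0.790 to 0.360.

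Across the 36 genes the median log2 ratio was -0.01, against -0.00094 over the 12969 genes tested. Ratios above 0 were found for 17 members, where 49.8% of all genes had one, and below 0 for 19, where 50.2% did. The signs of small ratios depended on the scaling. Under spike-in totals, where the median of all genes was -0.22, 32 members were below 0. With RSEM TPM 28 were, where the median of detected coding genes was -0.14. The shares of all genes below 0 under spike-in totals and with RSEM TPM were not computed. Ulk2 (-0.085), Atg4d (-0.047), Atg9a (-0.17) and Tfeb (-0.10), above 0 under TMM scaling, were below 0 under spike-in totals. No member differed at least 2-fold, against 4.64% of all genes tested (2.7% higher and 1.94% lower). Log2 ratios within 0.25 of 0 were found for 29 of the 36 genes (80.6%), against 59.3% of all genes tested and 66.8% of those with a summed count of at least 320, the lowest of the members. At least 1.5-fold, Ctsl was lower (821 of all genes, 6.33%) and Atg10 was higher (955 genes, 7.36%). The counting interval lay below 1 for 8 members, where 22.3% of all genes did so, and above 1 for 8, where 24.1% did. These shares are near the background.

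**Figure D2:**
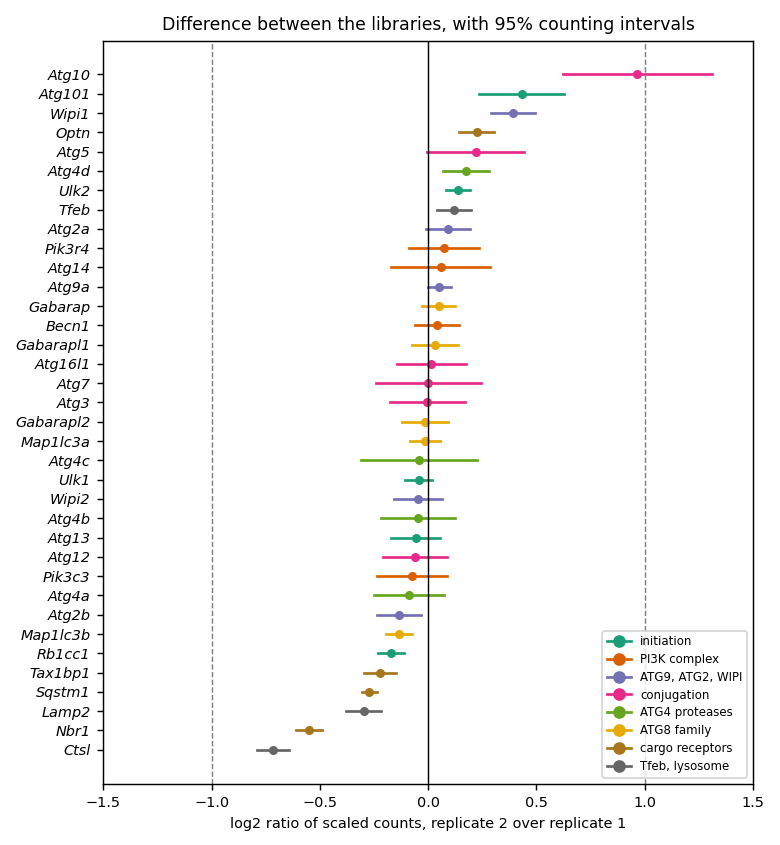
The ratio of scaled counts, replicate 2 over replicate 1, on a log2 axis for each gene, with bars for the 95% counting interval and dashed lines at 2-fold. Ctsl, Nbr1, Lamp2 and Sqstm1 stood lowest and Atg10, Atg101 and Wipi1 highest, while 20 of the 36 intervals spanned 0 on this axis.

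The 5 lowest log2 ratios were those of Ctsl (-0.71), Nbr1 (-0.55), Lamp2 (-0.30), Sqstm1 (-0.27) and Tax1bp1 (-0.22). Of the same roles, Optn (0.22) and Tfeb (0.12) were above 0. Slow fibre markers had a median log2 ratio of 2.60 between the same libraries. Macrophage markers had a median of 0.12, with 5 of 8 above 0, and a summed TPM of 34.7 in replicate 1 and 30.7 in replicate 2. Among them Cd163 was 1.86-fold higher in replicate 2 (1.57 to 2.21), Mrc1 1.19-fold (1.04 to 1.35) and Csf1r 1.17-fold (1.00 to 1.36). Lyz2 was 1.25-fold lower (1.11 to 1.41), Cd68 2.50-fold (1.46 to 4.44) and Adgre1 1.56-fold (1.02 to 2.41), while the intervals of C1qa and C1qb spanned 1. Of the other cell types of muscle, fibro-adipogenic markers had a median of 0.90 (7 of 8 above 0), adipocyte markers 0.43 (5 of 5), endothelial markers -0.44 (1 of 6) and satellite cell markers -0.83 (0 of 4). The part of these cell types in the ratios of the autophagy genes was not tested.

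Gene levels in total RNA also hold RNA that is not annotated as protein coding. In the median member 92.1% of RSEM TPM in replicate 1 and 93.96% in replicate 2 was assigned to protein-coding transcripts, against 93.4% and 94.6% in the median detected protein-coding gene. In 3 genes, Atg4d, Becn1 and Gabarapl2, the share was under 50% in both libraries and by both tools (8.33% of members, against 4.29% of detected coding genes). Atg4d was the extreme: a pair of retained intron transcripts took 60.8% and 34.6% of its RSEM TPM in replicate 1 and 60.8% and 34.4% in replicate 2. Its protein-coding transcript took 2.69% and 2.68%. Exons of Atg4d overlap those of Kri1 on the opposite strand by 1405 bases, and Kri1 was at 5.05 TPM on average. For Becn1, 22.6% and 13.4% of RSEM TPM went to protein-coding transcripts, while a transcript annotated for nonsense-mediated decay led with 38.8% and 41.9%. Exons of Becn1 overlap those of Cntd1 on the opposite strand, which was at 0.150 TPM. For Sqstm1, the most abundant member, 1 protein-coding transcript took 83.2% and 83.3%. Whether the counting used strand is not stated, so reads of a gene and of its partner on the opposite strand may not be told apart.

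**Figure D3:**
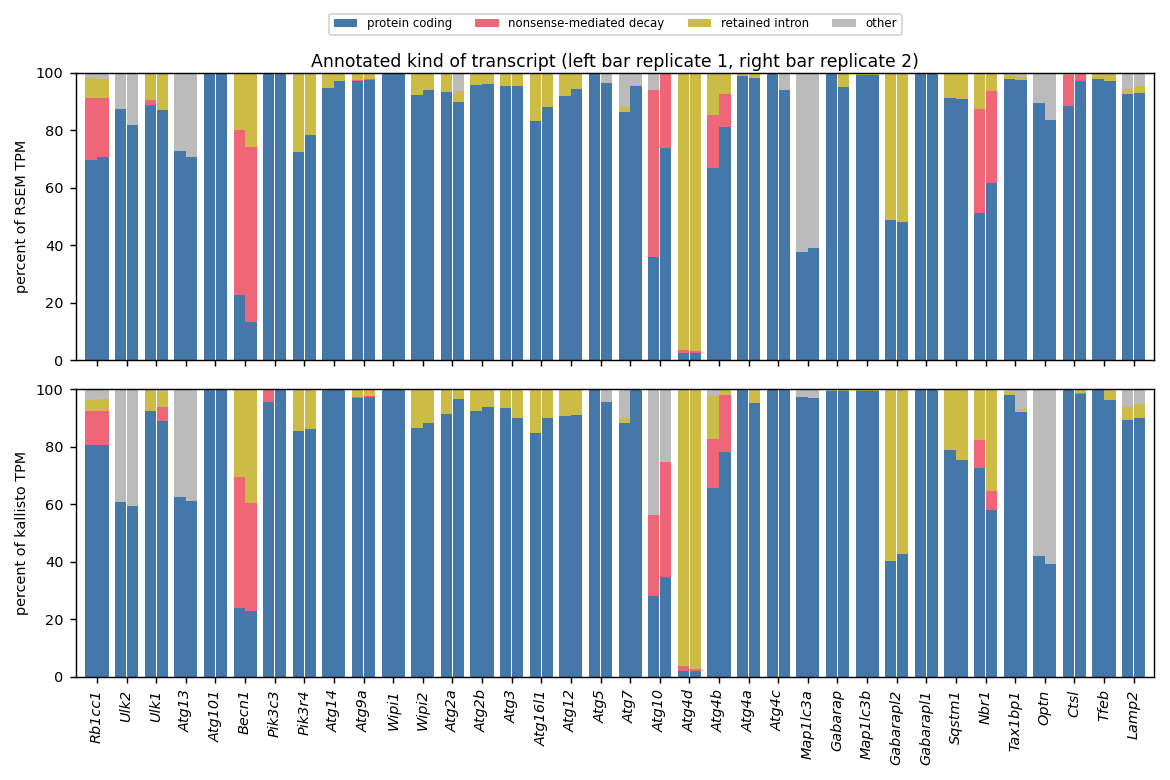
Percent of each gene's TPM by the annotated kind of its transcripts, by RSEM (top) and kallisto (bottom), with replicate 1 as the left and replicate 2 as the right bar of each pair. Retained intron transcripts filled most of the Atg4d bars in all 4 cases, whereas the Map1lc3a and Optn bars differed between the tools.

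The leading transcript was the same in both libraries for 33 of the 36 genes by RSEM and for 34 by kallisto, but the tools named the same one for 24. For Tfeb the coding transcript that led by RSEM, at 42.9% and 41.4%, stood at 4.91% and 6.75% by kallisto. For Nbr1 the leading transcript by RSEM changed from 1 annotated for nonsense-mediated decay (36.3% in replicate 1) to a protein-coding transcript (35.3% in replicate 2), while kallisto gave the latter in both. The log2 ratio of Nbr1 was -0.55 from counts and -0.83 from TPM.

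Promoter windows from RefSeq (GRCm38.p6, the same assembly as mm10), from 250 bases before to 50 bases after each start, were matched by symbol for 30 of the 36 genes. The E-box CACGTG, the core of the element that TFEB binds, was found in the windows of 5 of these genes (16.7%), against 8.09% of all symbols with a window and 7.15% of all windows. They were Atg3, Atg5, Atg7, Atg14 and Ctsl. The longer element of TFEB, this core with GT before it and AC after it, was in none of the members' windows, against 0.370% of all symbols. The FoxO core GTAAACA, held by 3.65% of all windows, was in none of the members' windows. Both strands were searched. The matches are shown with 12 bases on each side because the longer element is set by the bases around the core. They are written along the gene's strand with the E-box in capitals.
Atg3, chr16:45158723-45158752 (+): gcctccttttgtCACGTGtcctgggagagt
Atg3, chr16:45158746-45158775 (+): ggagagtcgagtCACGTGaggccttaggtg
Atg5, chr10:44268313-44268342 (+): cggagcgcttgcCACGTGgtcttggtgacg
Atg7, chr6:114670952-114670981 (+): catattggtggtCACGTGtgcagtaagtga
Atg14, chr14:47568418-47568447 (-): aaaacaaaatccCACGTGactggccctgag
Ctsl, chr13:64370739-64370768 (-): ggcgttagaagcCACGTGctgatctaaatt
The window of Ctsl, the member with the largest fall, is given whole (chr13:64370471-64370770, minus strand).
Ctsl: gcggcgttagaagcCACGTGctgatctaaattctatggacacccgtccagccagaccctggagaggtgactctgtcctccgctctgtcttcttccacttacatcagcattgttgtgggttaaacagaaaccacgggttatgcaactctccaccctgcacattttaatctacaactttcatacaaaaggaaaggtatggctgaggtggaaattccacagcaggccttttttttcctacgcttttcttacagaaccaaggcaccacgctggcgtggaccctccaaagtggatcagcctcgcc
Its E-box begins at position -236 from the RefSeq start, and the whole window lies within the GENCODE span of the gene given above. RefSeq and GENCODE starts differed for other members too: against the GENCODE gene span, the Atg7 match lay 27867 bases and the Atg14 match 2214 bases inside the gene. The Atg3 and Atg5 matches lay before the gene's start in both annotations. Among the genes with an E-box, Ctsl had a log2 ratio of -0.71, Atg3 of -0.0035, Atg7 of 0.00071, Atg14 of 0.06 and Atg5 of 0.22. A match is a string of letters and not a measured binding site.

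Other genes of the pathway were described from 5 lists. Of the lysosome list, 23 of 24 symbols were found and 22 reached 1 TPM in both libraries, at a median of 13.6 ± 1.06 TPM. Its highest genes were Psap, the saposin precursor, at 373 and 335 TPM, the protease Ctsd at 214 and 195 TPM and the membrane protein Lamp1 at 184 and 176 TPM. These 3 had log2 ratios of -0.01, 0.01 and 0.08, while Ctsl and Lamp2 stood at -0.71 and -0.30. The list's median was 0.01, with 12 of 23 genes above 0 and none past 2-fold. All 15 genes of the vacuolar ATPase, the proton pump that acidifies the lysosome, were detected, at a median of 30.1 ± 2.66 TPM. Of these, 11 were below 0, where 50.2% of all genes were, with a median of -0.14. Atp6v1g1 led at 162 and 127 TPM, ahead of Atp6v0c (80.5 and 66.4 TPM) and Atp6v1e1 (63.7 and 56.3 TPM).

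Of the 20 genes around mTORC1, the kinase complex that restrains autophagy when nutrients are plentiful, 19 reached 1 TPM in both libraries. The highest were Rragd, a Rag GTPase, at 86.1 and 82.8 TPM, Akt1s1, the inhibitory subunit PRAS40, at 65.95 and 63.0 TPM, and Lamtor1, the lysosomal anchor, at 41.4 and 47.4 TPM. The list's median log2 ratio was 0.08, with 12 genes above 0 and 8 below. All 14 genes of autophagosome fusion were detected, led by Rab7, the GTPase of late endosomes, at 190 and 117 TPM. Rab7 was 1.48-fold lower in replicate 2 (1.43 to 1.52), while Vps33a (20.1 and 17.5 TPM) and the SNARE Vamp8 (16.6 and 19.4 TPM) had log2 ratios of -0.08 and 0.36. In this list 5 genes were above 0 and 9 below, with a median of -0.07.

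Among 21 other autophagy factors, 19 reached 1 TPM in both libraries and 20 were tested. Sh3glb1, a membrane-bending partner of the beclin complex, was at 133 and 145 TPM, Trp53inp2, an ATG8-binding regulator, at 89.7 and 135 TPM, and Vmp1, a lipid scramblase of the endoplasmic reticulum, at 49.7 and 37.1 TPM. The genes past 2-fold in these 5 lists were both here and both higher, where 2.7% of all genes were: Trp53inp1 was 2.67-fold higher (2.38 to 3.00) at 3.57 and 8.07 TPM, and Bcl2l1, an inhibitor of cell death that also binds beclin, was 2.55-fold higher (2.25 to 2.88) at 6.82 and 13.4 TPM. The rest of this list centred near 0, with a list median of -0.05. Atg9b, the paralogue of Atg9a, was at 0.06 and 0.07 TPM, against 54.8 and 50.2 TPM of Atg9a.

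**Figure D4:**
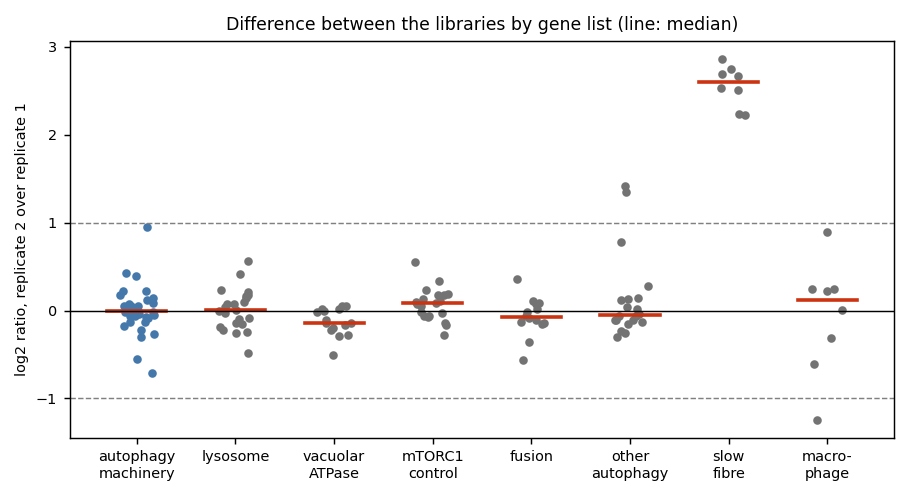
The log2 ratio, replicate 2 over replicate 1, of each gene tested in 8 lists, with a red line at the list's median and dashed lines at 2-fold. The autophagy machinery centred on -0.01 with no gene past 2-fold, and the slow fibre markers centred on 2.60.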

How the data were processed

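Expected counts per gene and transcript were deposited by the authors for each library, in RSEM's layout per the file headers. They were made from transcriptome alignments on mm10 with GENCODE M21, per the notes deposited beside them. A further deposited table of each library, made from the reads, holds estimated counts under kallisto's column names, per the file headers. TPM values of both tools were taken as deposited by the authors, and posterior mean TPM served as an alternative. The aligner and the tools' versions: not given in the sources used here. Symbols came from the kallisto identifiers, joined by gene ID, and kallisto values were summed per gene. Expected counts were rounded. Log2 ratios used edgeR 4.0.16 (R 4.3.3), TMM factors and a prior count of 2, over the 12969 genes whose counts summed to 50 or more. DESeq2 1.42.0 gave alternative size factors. Python 3.11.15 with pandas 2.3.3 and numpy 2.4.6 did the rest. The calculation of ratios and intervals was tested on simulated counts that held counting error only. Members and gene lists were chosen with earlier results of these data known. All 36 members are named, and of each pathway list the 3 of highest mean TPM with any past 2-fold. Further genes (Atg9b and single markers) were chosen after their values were seen. Replicates share 1 group, and with 1 library against 1 a p-value for a ratio could cover counting error only, so none is given.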

Additional observations from a re-analysis of the deposited data

How the results depend on the processing

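Detection of the members held in each setting tried: 36 of 36 genes by kallisto, by posterior mean TPM and in each library alone, 31 at a minimum of 5 TPM and 35 in protein-coding transcripts only, an alternative added after the data were seen. The shares of all genes detected in these settings were not computed. The median level of 24.5 TPM moved to 31.9 TPM by kallisto, 24.2 TPM by posterior mean TPM and 13.0 TPM over protein-coding transcripts, and was 24.4 to 24.5 TPM when 1 library was left out. The members' median log2 ratio of -0.01 moved to -0.23 under spike-in totals, where the median of all genes moved to -0.22, and to -0.15 with RSEM TPM (added later), where that of detected coding genes was -0.14. No member passed 2-fold in scaled counts or RSEM TPM under any of the 8 settings that kept that limit (a minimum of 500 counts left the thinnest members untested). Under TMM scaling 2 passed 1.5-fold, Ctsl and Atg10. With RSEM TPM Atg10 fell under 1.5-fold (log2 ratio 0.50). Nbr1 passed 1.5-fold with RSEM TPM (-0.83) and under spike-in totals (-0.77). Under TMM, DESeq2 size factors, spike-in totals, kallisto counts and RSEM TPM, 18 members stayed below 0. Atg10, Atg101, Wipi1 and Optn (4 members) stayed above 0, and 14 members changed sign. The background medians also lay below 0 under spike-in totals (-0.22) and with RSEM TPM (-0.14). The matching shares of all genes were not computed, so these counts of members cannot be set against a background. The cause of these shifts was not tested. Ratios could not be computed with 1 library left out. No paired analysis was possible because there is 1 group. Depth limits Atg10 most, with 320 counts in all.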
